A study of Sus scrofa with 32 samples.

Results

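Sertoli cells are the somatic cells of the seminiferous tubule that carry and feed the developing germ cells, and 10 genes that mark them were looked up by symbol in testis count tables from pigs. An identifier was found for 7 of the 10 (SOX9, FSHR, WT1, GATA4, DHH, CLU and CTSL), among 25322 gene identifiers in all, of which 11804 had a symbol. AMH, SHBG and CST9L had no identifier under their symbol and were not analysed here, so the usual measure of Sertoli cell maturity, AMH against later genes, could not be formed. The study sequenced messenger RNA of whole testis from 32 male Danish pigs, Duroc crossed with Landrace/Yorkshire, that were slaughtered near 100 kg. The pigs had high or low boar taint, labelled High AS or Low AS for androstenone and skatole, and ate either a control diet or one with 15% chicory for the last 3 days. There were 10 High AS control, 7 High AS chicory, 7 Low AS control and 7 Low AS chicory pigs, and 1 chicory pig without an AS group. Androstenone ran from 0.67 to 7.77 mg/kg in the 17 High AS pigs and from 0 to 1.07 mg/kg in the 14 Low AS pigs, so the groups overlapped. Carcass weight was given for 29 pigs and was 82.1 to 101.9 kg in High AS and 76.2 to 96.1 kg in Low AS pigs.

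In the fetal gonad SOX9, with WT1 and GATA4, sets up the Sertoli cell fate, and AMH secreted by the young cells removes the female duct. DHH from Sertoli cells signals through PTCH1 and SMO to Leydig and peritubular cells. At puberty the cells stop dividing, AMH falls, junctions between them close the blood-testis barrier, and FSH, acting through FSHR, and androgen maintain their secretion of proteins such as clusterin. Androstenone is a pheromone steroid made by Leydig cells of the same tissue.

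Library names divided the pigs into 8 libraries with an added number in the name (called numbered, 10585625 to 20349500 counts in genes) and 24 without one (plain, 1855174 to 5993637 counts). High AS pigs gave 6 of the numbered libraries and Low AS control pigs the other 2. What the number stands for is not given in the sources used here. Sequencing lane 7 held 4 of the numbered libraries, each from a High AS pig, and lane 6 held the rest. Lane 7 thus lay within the numbered libraries and within High AS. Lane was a term in no model, and its part was not tested. The labelled tissue held markers of spermatids and Leydig cells. All 9 elongating spermatid markers and all 6 Leydig markers with an identifier had a median of at least 0.1 CPM, which is a low bar. CPM is the number of counts of a gene scaled to a fixed library total. None of 4 duct and epididymis markers reached 0.1 CPM. Other lists were measured in part: 4 of 7 spermatogonia and 2 of 4 macrophage markers with an identifier had enough counts to be tested between AS groups. A pair of pigs stood apart. Low AS chicory replicate 1 had the lowest summed elongating spermatid markers, 2810 CPM against a median of 30100 CPM over all pigs, and the highest summed spermatogonia markers, 160 CPM against a median of 36.1 CPM. Its library was also the shallowest, with 1855174 counts, and had the highest share of reads in no annotated gene, 39.6%. High AS control replicate 3, a numbered library, had the highest summed peritubular and smooth muscle markers, 320 CPM against a median of 122 CPM over all pigs. Most pigs had plain libraries, and 4 of 7 of these markers were higher in numbered libraries (below). The part of library set in this pig's value was not tested. In whole tissue, fewer Sertoli cells and less of a transcript per Sertoli cell cannot be told apart.

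The transcription factors were detected in every pig. SOX9, which holds the Sertoli cell fate, had a lowest, median and highest level of 18.8, 35.6 and 136 CPM, scaled by the trimmed mean of M values (TMM), with a coefficient of variation over the 32 pigs of 52%. Low AS chicory replicate 1 held the highest value and Low AS control replicate 3, at 78.3 CPM, came next. WT1, a zinc finger factor that keeps the adult Sertoli cell type, was the least variable member, at 20.4, 32.5 and 55.9 CPM and a coefficient of variation of 23.8%. GATA4, which is shared by Sertoli and Leydig cells, ranged over 6.08, 11.1 and 17.4 CPM with a coefficient of variation of 29.8%. FSHR, the receptor through which FSH acts on Sertoli cells, spread more widely, from 2.2 through a median of 7.26 to 27.6 CPM, a coefficient of variation of 72.2%. DHH, the hedgehog ligand of Sertoli cells, reached 9.82 CPM in Low AS chicory replicate 7 and had a median of 2.73 CPM. No DHH read was counted in High AS chicory replicate 3, where the limit that 3 counts allow is 1.37 CPM. CLU encodes clusterin, a secreted chaperone and a major Sertoli product, and had 736, 1770 and 5570 CPM as its lowest, median and highest level. Its highest level was again in Low AS chicory replicate 1 and its lowest in Low AS control replicate 3. CTSL, a lysosomal protease that Sertoli cells also secrete, was at the edge of what these libraries measure, with a median of 10.5 counts and of 2.04 CPM.

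Counting error bounded what could be read from the rarer members. At the median count, Poisson counting alone gives a coefficient of variation of 30.9% for CTSL and 26.3% for DHH, against 64.1% and 74% measured. For CLU it gives 1.08%, against 50.4% measured. The measured values pool both library sets, between which CLU, DHH and FSHR differed (below), so they are not variation among pigs alone. The CTSL value carries a further doubt, because the symbol table holds CTSV with older names of CTSL among its synonyms. The identifier counted as CTSL may therefore not be the gene meant. How reads that fit more than 1 gene copy were counted is not given in the sources used here. CTSV, named after its values were seen, had 59.1 to 266 CPM in plain and 22.7 to 93.9 CPM in numbered libraries. Among the 24 plain libraries, 8 sows had more than 1 pig (19 pigs). There the within-sow SD of log2 CPM was 0.57 for SOX9, 0.92 for FSHR and 0.54 for CLU. The SD of the sow means was 0.40, 0.52 and 0.33, and it was the smaller of the 2 for 6 members. A mean over several pigs varies less than a single pig, so the 2 SDs are not like measures. Whether sows differed was not tested. WT1 was the 1 of the 7 with a smaller within-sow SD, 0.25 against 0.28.

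**Figure D1:**
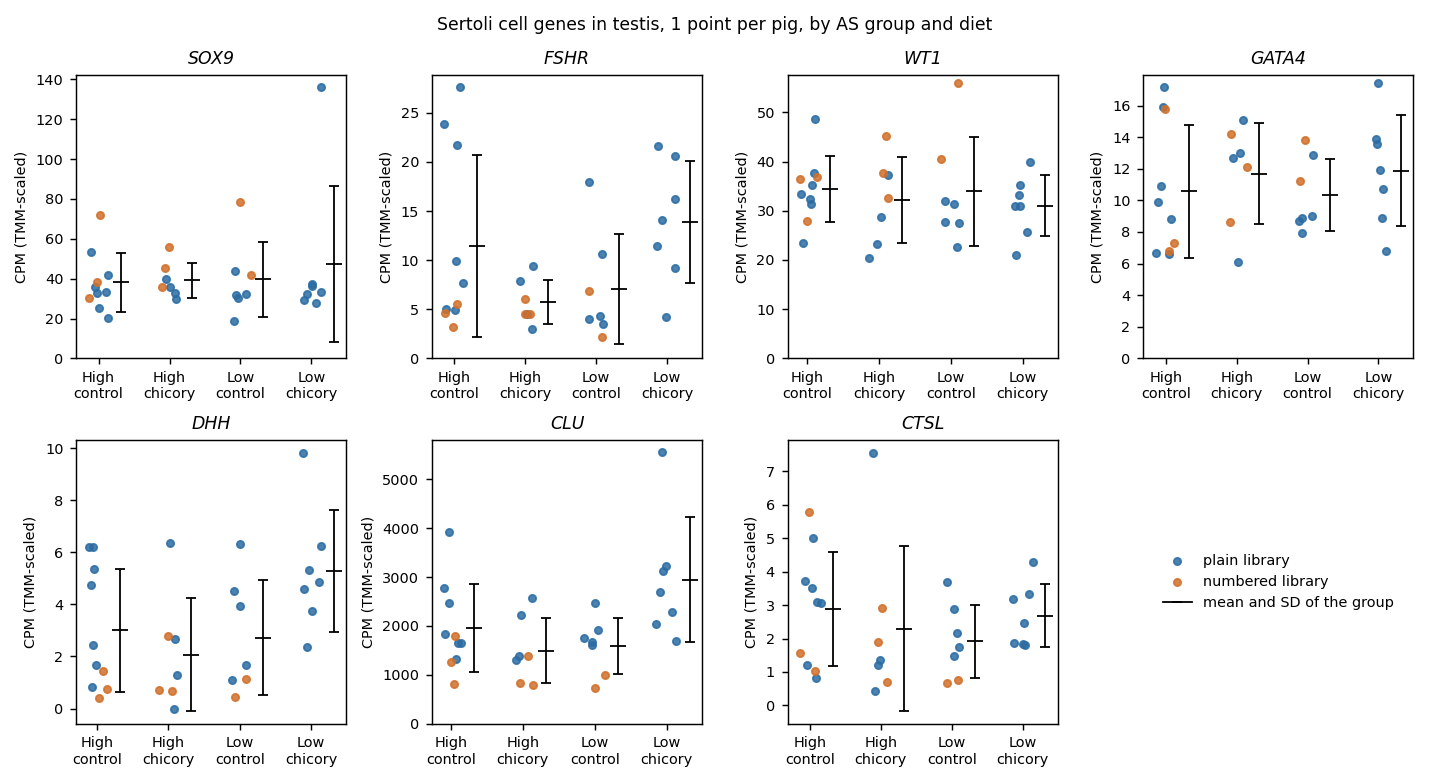
Level of each of the 7 genes (CPM, TMM-scaled, vertical axis) in each pig of the 4 AS by diet groups (horizontal axis), coloured by library set, with the mean and SD of the group beside the points. The 4 groups overlap for every gene, the SOX9 point at 136 CPM and the CLU point at 5570 CPM are the same Low AS chicory pig, and the numbered libraries lie low for CLU, DHH and FSHR.

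Members passed the test between library sets and in none of the comparisons by trait or diet. CLU, DHH and FSHR were lower in the numbered libraries, while SOX9, WT1, GATA4 and CTSL did not pass with all pigs in the model. CLU had 736, 908 and 1790 CPM (lowest, median, highest) in the 8 numbered and 1300, 2130 and 5570 CPM in the 24 plain libraries, and the sets overlapped. DHH had 0.417, 0.715 and 2.8 CPM in numbered and 0, 4.47 and 9.82 CPM in plain libraries. FSHR had 2.2, 4.57 and 6.82 CPM in numbered and 3.04, 9.67 and 27.6 CPM in plain libraries. Every numbered library thus lay below the plain median for each of the 3 genes.

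In the model of AS group, diet and library set, edgeR's quasi-likelihood test with Benjamini-Hochberg adjustment over 13025 genes called 29.1% of all genes between the sets, and 3 of the 7 members. The log2 difference, numbered over plain, was -1.10 (SE 0.24, adjusted p = 0.000924) for CLU, -1.89 (SE 0.41, adjusted p = 0.000859) for DHH and -1.35 (SE 0.36, adjusted p = 0.00541) for FSHR. SOX9 went the other way, at 0.43 (95% interval -0.03 to 0.90, adjusted p = 0.152), as did WT1, at 0.29 (0.01 to 0.56, adjusted p = 0.107), while GATA4 was at -0.01 (-0.38 to 0.37) and CTSL at -0.71 (-1.46 to 0.05). Single pigs decided some of these: CTSL was called at -1.18 (edgeR adjusted p = 0.00999) without High AS control replicate 8, WT1 at 0.35 (edgeR adjusted p = 0.0355) without High AS control replicate 5, and SOX9 at 0.52 without Low AS chicory replicate 1 and at 0.43 (edgeR adjusted p = 0.0294) without that pig and High AS control replicate 3. With sow as a further block none of the 3 stayed called by edgeR (adjusted p = 0.0788 for CLU, 0.13 for DHH and 0.3 for FSHR) and SOX9, at 1.03 (adjusted p = 0.00636), and WT1, at 0.49 (adjusted p = 0.047), were. Genes of other cells moved with the sets. Of 6 Leydig markers 5 were lower in numbered libraries, with a summed level of 912 to 3230 CPM against 1380 to 8230 CPM, and of 7 peritubular and smooth muscle markers 4 were higher, with 186 to 320 CPM against 73.7 to 264 CPM. Their part in the difference was not tested, and library set, depth and whatever the added number stands for cannot be told apart.

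Sertoli products and junction genes split in the same comparison. CDH2, the N-cadherin of Sertoli junctions, was lower in numbered libraries by edgeR, with a log2 difference of -1.32 (SE 0.30, adjusted p = 0.00124), and so were CLDN11, the claudin of the blood-testis barrier, at -0.89 (SE 0.31, adjusted p = 0.0308), and SERPINA5, a secreted protease inhibitor, at -1.58 (SE 0.29, adjusted p = 0.000214). TJP1, a scaffold of tight junctions, ESPN, an actin bundler, and TF, transferrin, were higher, at 0.51, 1.03 and 2.92. So 3 of 7 measured genes of that list rose and 3 fell, beside the 29.1% called among all genes. Of 6 measured genes of hedgehog signalling 1 rose and 1 fell by edgeR. PTCH1, the receptor of DHH, was higher, at 1.15 (SE 0.26, adjusted p = 0.00114), opposite in sign to its ligand. HHAT was lower, at -0.37 (SE 0.14, adjusted p = 0.0441), with the same sign as DHH.

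No member passed the test between AS groups. CLU had 786, 1660 and 3930 CPM in the 17 High AS and 736, 1980 and 5570 CPM in the 14 Low AS pigs. SOX9 had 20.2, 35.6 and 71.7 CPM in High AS and 18.8, 32.9 and 136 CPM in Low AS pigs. FSHR had 3.04, 5.52 and 27.6 CPM in High AS and 2.2, 9.88 and 21.6 CPM in Low AS pigs. The groups overlapped throughout.

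With diet and library set in the model, edgeR called 0 of the 7 members and 0% of the 13025 genes between AS groups; 300 genes had an unadjusted p under 0.05, none of them a member, and DESeq2 called 0 genes with 371 under 0.05 unadjusted. The log2 difference, High over Low AS, was -0.23 (95% interval -0.65 to 0.19) for SOX9, 0.03 (-0.61 to 0.66) for FSHR, -0.01 (-0.26 to 0.23) for WT1 and 0.00 (-0.32 to 0.32) for GATA4. It was -0.11 (-0.83 to 0.60) for DHH, -0.08 (-0.50 to 0.33) for CLU and 0.49 (-0.22 to 1.20) for CTSL, with adjusted p between 0.988 and 1. The median of the 7 was -0.01, against 0.01 over all genes tested. The intervals of WT1, GATA4 and CLU leave room for differences of up to 0.50 on the log2 scale, and those of SOX9, FSHR, DHH and CTSL for more. Within the plain libraries alone the CLU difference was -0.18 (SE 0.24) and within the numbered libraries 0.57 (SE 0.36), and for SOX9 the values were -0.15 (SE 0.26) and -0.36 (SE 0.39). The SOX9 value rested on 1 pig: it was 0.0018 without Low AS chicory replicate 1, and the CLU value was 0.04 without it.

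Along the androstenone concentration, 6 of the 7 members had a negative slope and none passed the test. edgeR called 0.0227% of the 13199 genes tested, and 0 of the 7 members. DHH had the steepest slope of the 7, -0.32 log2 units per doubling of androstenone plus 0.5 mg/kg (95% interval -0.66 to 0.02, edgeR unadjusted p = 0.0605, edgeR adjusted p = 0.852). The DHH slope stayed negative in the alternative runs along the log2 concentration, from -0.51 to -0.23, and these runs share most of their pigs. The value of -0.23 came without High AS chicory replicate 3, the pig at 5.9 mg/kg in which no DHH read was counted. FSHR had -0.21 (-0.54 to 0.11), CLU -0.07 (-0.27 to 0.13), SOX9 -0.06 (-0.28 to 0.16), WT1 -0.03 (-0.15 to 0.10) and GATA4 -0.01 (-0.18 to 0.17). CTSL was the positive one, at 0.13 (-0.23 to 0.50). Without Low AS chicory replicate 1 the SOX9 slope was 0.01. The median slope of the members was -0.06 and that of all genes -0.01. At an unadjusted p under 0.05 there were 668 genes by edgeR, 0 of them members, and 814 by DESeq2, 1 of them a member. DESeq2 called 7 genes and 0 members. Of the Sertoli products and junction genes 5 of 7 were negative and 0 passed, and of the immature Sertoli genes (KRT8, NCAM1, VIM and BAMBI) 2 of 4 were negative and 0 passed.

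Carcass weight, which stands here for body size within pigs slaughtered at a like weight, showed no relation that passed the test. edgeR called 0% of 13413 genes in 29 pigs (221 under 0.05 unadjusted, and 0 called by DESeq2) and 0 of the 7 members. DHH again had the steepest slope, -0.44 log2 units per 10 kg (95% interval -1.09 to 0.21, edgeR adjusted p = 0.999). FSHR had -0.14 (-0.71 to 0.43), GATA4 -0.10 (-0.42 to 0.22), CLU -0.09 (-0.48 to 0.30), SOX9 -0.05 (-0.45 to 0.35), WT1 0.06 (-0.17 to 0.29) and CTSL 0.10 (-0.49 to 0.70). High AS pigs were the heavier, with a mean of 91.7 kg against 87.0 kg, and with AS group as a further term the SOX9 slope was 0.05.

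Chicory feeding changed no member by the test. edgeR called 0.00768% of 13025 genes, which is 1 gene, and 0 of the 7 members, all with adjusted p of 1. At an unadjusted p under 0.05 there were 114 genes, 0 of them members, and DESeq2 called 1 gene and 0 members. The log2 difference, chicory over control, was 0.32 (95% interval -0.35 to 0.99) for DHH, 0.19 (-0.22 to 0.61) for SOX9, 0.17 (-0.17 to 0.51) for GATA4, 0.17 (-0.23 to 0.57) for CLU, 0.01 (-0.63 to 0.66) for CTSL, -0.02 (-0.64 to 0.61) for FSHR and -0.09 (-0.33 to 0.16) for WT1. Without Low AS chicory replicate 1 the SOX9 difference was -0.05 and that of CLU 0.04, and without High AS chicory replicate 5 that of DHH was 0.05. The chicory pig without an AS group had 46.6 CPM of SOX9, 10.8 CPM of FSHR and 3200 CPM of CLU, each within the range of the other chicory pigs.

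Whether the AS difference depended on diet was asked with an interaction term, and all 7 members had a negative estimate that did not pass. The 7 genes share the same pigs, as do the genes of each list below, so a common sign is not separate evidence. CLU had 1690, 2700 and 5570 CPM in Low AS chicory, 736, 1680 and 2470 CPM in Low AS control, 786, 1380 and 2580 CPM in High AS chicory and 814, 1720 and 3930 CPM in High AS control pigs. FSHR had 4.18, 14.1 and 21.6 CPM in Low AS chicory, 2.2, 4.34 and 18 CPM in Low AS control, 3.04, 4.56 and 9.42 CPM in High AS chicory and 3.23, 6.61 and 27.6 CPM in High AS control pigs. DHH had medians of 4.84, 1.67, 1.3 and 2.06 CPM in the same order. Low AS chicory pigs were thus the highest group by median for the 3 genes, all groups overlapped, and all 7 of these pigs had plain libraries, against 4 of 7 High AS chicory, 7 of 10 High AS control and 5 of 7 Low AS control pigs.

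With library set in the model the interaction was -1.01 log2 units for CLU (95% interval -1.74 to -0.28, unadjusted p = 0.00804, edgeR adjusted p = 0.951), -1.35 for FSHR (-2.60 to -0.09, unadjusted p = 0.0362, edgeR adjusted p = 0.951), -0.82 for CTSL (-2.17 to 0.52), -0.70 for DHH (-2.13 to 0.74), -0.51 for SOX9 (-1.37 to 0.35), -0.16 for WT1 (-0.68 to 0.37) and -0.07 for GATA4 (-0.79 to 0.65). edgeR called 0% of 13025 genes (473 under 0.05 unadjusted, 2 of them members, and 0 called by DESeq2). The members' median was -0.70, against -0.02 over all genes, of which 47.7% had a positive estimate. Within the plain libraries CLU had -0.92 (SE 0.43) and FSHR -1.91 (SE 0.73). Without Low AS chicory replicate 1 CLU had -0.75 and SOX9 0.04, so the negative SOX9 value rested on that pig. Without that pig and High AS control replicate 3 the estimate was 0.19 for SOX9 and 0.14 for GATA4. The receptors and signal carriers of AMH were negative in 7 of 7, with a median of -0.44, and Sertoli products and junction genes in 6 of 7, with a median of -0.91, and 0 of either list passed. Spermatid markers lay on the other side: 7 of 7 round and 9 of 9 elongating spermatid markers were positive and 0 passed, with medians of 0.14 and 0.40, and their part in the members' values was not tested.

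**Figure D2:**
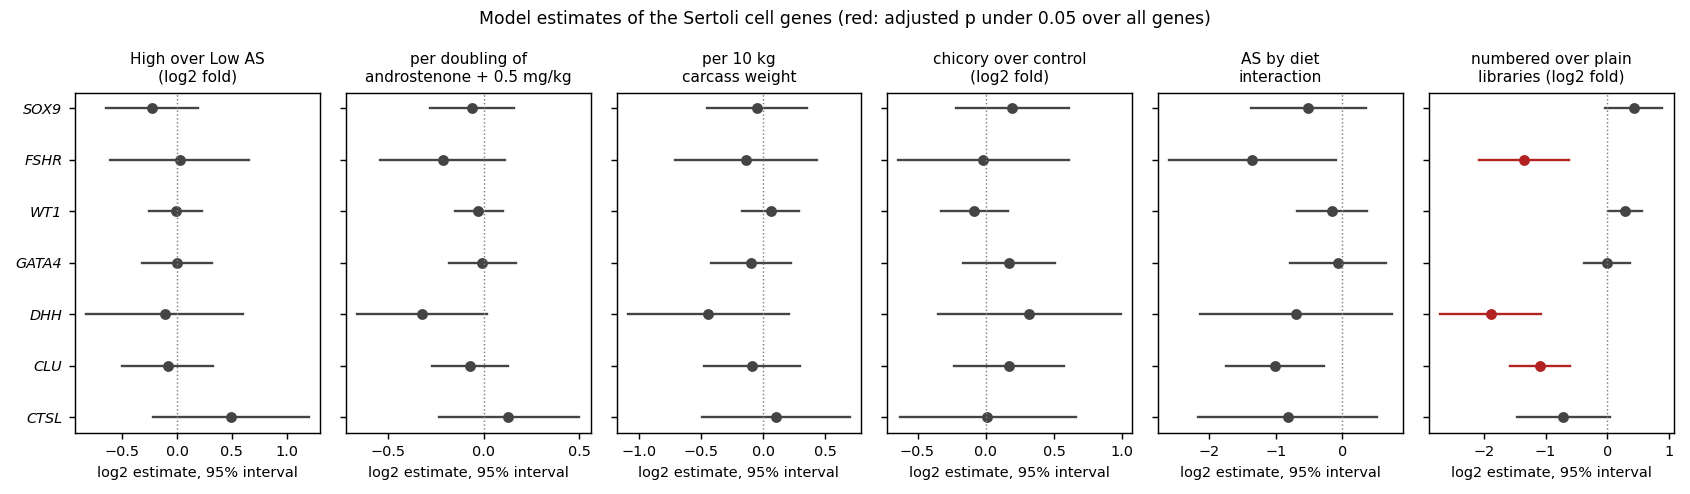
Log2 estimate (horizontal axes) with its 95% interval for each of the 7 genes in the models of AS group, androstenone, carcass weight, diet, the AS by diet interaction and library set. No estimate for a trait or diet passed adjustment over all genes, all 7 interaction estimates lie below 0, and CLU, DHH and FSHR differed between library sets (red).

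The members varied together across pigs, chiefly within the plain libraries. Correlations of log2 CPM were taken within each library set, for all 21 pairs. In the 24 plain libraries 21 of 21 pairs were positive, with a median r of 0.43 and a range of 0.02 to 0.74, while the median r of a member with all 13751 genes tested lay between -0.04 and 0.04. The spread over all genes was wide. Its 95th percentile was 0.63 for SOX9, 0.67 for FSHR, 0.43 for WT1, 0.58 for GATA4, 0.57 for DHH, 0.70 for CLU and 0.48 for CTSL. A pair at the median r of 0.43 was thus within the range of other genes for each member. In the 8 numbered libraries 13 of 21 pairs were positive, with a median of 0.24 and a range of -0.79 to 0.77. Libraries share depth and scaling across all genes, and the members were chosen for a shared cell type, so these values describe these pigs.

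In plain libraries the highest r values were those of CLU with GATA4, FSHR and SOX9. CLU also had the least counting error of the members, 1.08% at its median count against 30.9% for CTSL. Counting error lowers r for the rarer members, and its part here was not tested. GATA4 and CLU had r = 0.74 (rho = 0.78, permutation p = 3e-05 for r and 2e-05 for rho) in plain libraries, 0.70 without the 2 pigs farthest from the median, and r = 0.35 (rho = 0.48, exact permutation p = 0.38 and 0.24) in numbered libraries. Of all genes, 95% had an r with CLU under 0.70 in the plain libraries. FSHR and CLU had r = 0.73 (rho = 0.76, permutation p = 6e-05 and 5e-05), 0.65 without the 2 farthest pigs, and r = 0.54 (rho = 0.71, exact permutation p = 0.17 and 0.058) in numbered libraries. SOX9 and CLU had r = 0.72 (rho = 0.58, permutation p = 5e-05 and 0.0035) in plain libraries, 0.57 without the 2 farthest pigs, and r = 0.20 (rho = -0.07, exact permutation p = 0.64 and 0.88) in numbered libraries.

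FSHR and DHH were correlated in both sets. Their r was 0.62 (rho = 0.65, permutation p = 0.00076 and 0.001) in plain libraries and 0.77 (rho = 0.88, exact permutation p = 0.029 and 0.0072) in numbered libraries, and 0.58 and 0.91 without the 2 farthest pigs. WT1 with CLU had r = 0.47 (rho = 0.36, permutation p = 0.022 and 0.083) in plain and -0.62 (rho = -0.71, exact permutation p = 0.1 and 0.058) in numbered libraries, and 0.28 without the 2 farthest plain libraries. SOX9 and DHH had the second weakest r in plain libraries, 0.05 (rho = 0.20, permutation p = 0.82 and 0.35, and 0.08 without the 2 farthest pigs), and r = -0.15 (rho = -0.14, exact permutation p = 0.73 and 0.75) in numbered libraries. These 6 pairs are among 21 computed in each set, and no p here is adjusted for that number; the adjusted values come from the model below, over all genes.

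**Figure D3:**
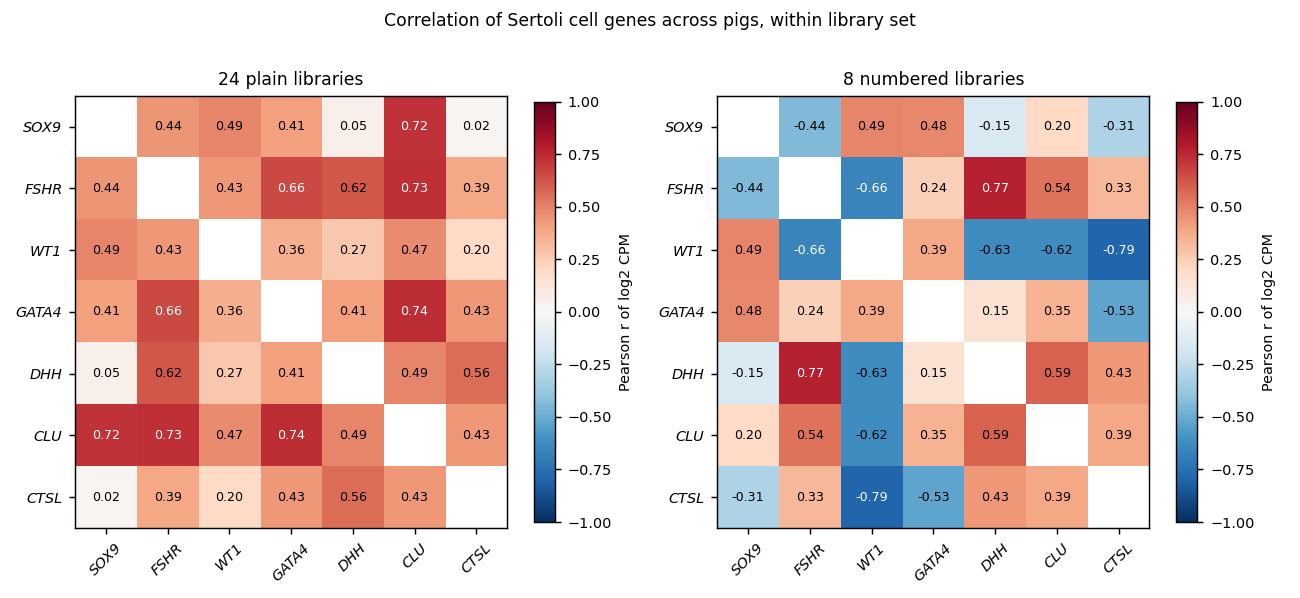
Pearson r of log2 CPM (colour and printed value) for each pair of the 7 genes across the 24 plain libraries (left) and the 8 numbered libraries (right). All pairs are positive on the left, with CLU against GATA4, FSHR and SOX9 the strongest at 0.74, 0.73 and 0.72, while on the right 8 of 21 are negative, most of them with WT1 or CTSL.

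Modelled over all 32 pigs with library set as a term, CLU, WT1 and GATA4 rose with SOX9. CLU rose by 0.65 log2 units per doubling of SOX9 (SE 0.12, edgeR adjusted p = 0.000143), WT1 by 0.32 (SE 0.10, edgeR adjusted p = 0.0125) and GATA4 by 0.39 (SE 0.15, edgeR adjusted p = 0.0389). FSHR had a slope of 0.54 (95% interval 0.01 to 1.07, edgeR adjusted p = 0.103), DHH of 0.11 (-0.56 to 0.78) and CTSL of -0.32 (-0.98 to 0.35). That is 3 of 6 members called, where edgeR called 35.5% of all 13751 genes, so a call along SOX9 was common among all genes. It turned on 1 pig: without Low AS chicory replicate 1 the share fell to 6.77% of 13144 genes and CLU alone was called (0.59, SE 0.18, edgeR adjusted p = 0.0434), with WT1 at 0.40 (adjusted p = 0.064) and GATA4 at 0.53 (adjusted p = 0.0925). Without High AS control replicate 3 as well, 2.84% of 13086 genes and 0 of 6 members were called. At an unadjusted edgeR p under 0.05 there were 3 members, beside 17.5% of all genes. The slopes were of like size, 0.50 for CLU, 0.45 for WT1 and 0.49 for GATA4. With sow as a block over all pigs CLU was called at 0.51 (edgeR adjusted p = 0.0429), and WT1 at 0.26 (adjusted p = 0.13) and GATA4 at 0.34 (adjusted p = 0.144) were not.

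**Figure D4:**
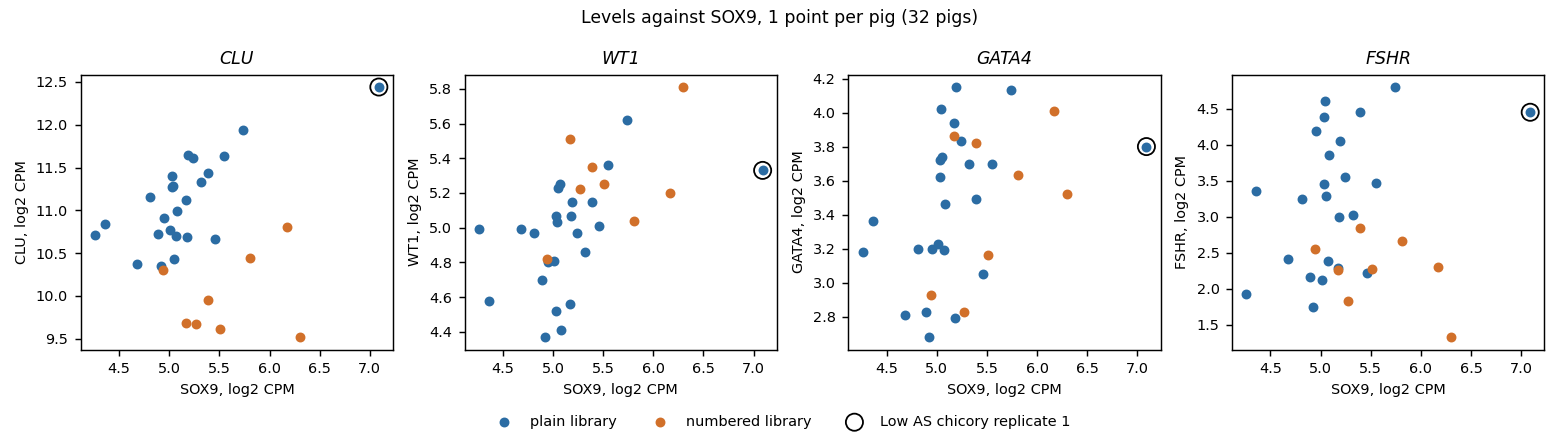
Log2 CPM of CLU, WT1, GATA4 and FSHR (vertical axes) against that of SOX9 (horizontal axes) in 32 pigs, by library set, with Low AS chicory replicate 1 circled at the far right. The sets overlap in each panel, the numbered libraries lie towards the low end for CLU and FSHR, and the circled pig extends the SOX9 range.

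Some partner genes of the Sertoli cell fate rose with SOX9, beside the 35.5% called among all genes. Of 7 measured transcription factors and sex determination partners 4 rose and 0 fell: GATA6, a relative of GATA4, by 0.95 (SE 0.10), CBX2, a Polycomb protein needed for testis formation, by 0.96 (SE 0.13), NR5A1, the steroidogenic factor SF-1, by 0.69 (SE 0.20) and NR0B1 (DAX1) by 0.56 (SE 0.17), with edgeR adjusted p of 4.28e-08, 2.28e-06, 0.00745 and 0.00922. DMRT1 had 0.15 (edgeR adjusted p = 0.571), and ZFPM2, the 1 with a negative slope, had -0.42 (edgeR adjusted p = 0.239). The median slope of the list was 0.56, against 0.00 for all genes. Without both pigs that stood apart GATA6 (0.84, edgeR adjusted p = 0.00487) and CBX2 (0.87, adjusted p = 0.0265) were still called. That is 2 of 6, beside 2.84% of all genes.

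Of 6 measured genes of hedgehog signalling 4 rose with SOX9, beside the 35.5% called among all genes, and whether they differ from the ligand DHH was not tested. SMO, the signal transducer, rose by 0.95 (SE 0.15, edgeR adjusted p = 1.32e-05), PTCH1 by 0.86 (SE 0.14, adjusted p = 1.69e-05), GLI3 by 0.87 (SE 0.26, adjusted p = 0.00948) and SUFU by 0.41 (SE 0.16, adjusted p = 0.0409). SMO alone was called without both apart pigs (1.01, SE 0.24, edgeR adjusted p = 0.0179). The signal carriers SMAD1 (0.29) and SMAD9 (0.49) were called among 7 genes of AMH signalling, a share below the 35.5% of all genes, with 7 of 7 positive, and without both apart pigs 0 of 7 were called and 6 were positive, while AMHR2, the AMH receptor itself, had 0.16 (SE 0.27, edgeR adjusted p = 0.683). INHA, the inhibin subunit that Sertoli cells make under FSH, rose by 0.94 (SE 0.14, edgeR adjusted p = 6.65e-06), 1 of 4 of its list.

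Some genes of the mature and some of the immature Sertoli cell rose with SOX9, 3 of 8 and 2 of 4, beside the 35.5% called among all genes. Of 8 products and junction genes 8 were positive and 3 rose by edgeR: OCLN, the tight junction protein occludin, by 0.73 (SE 0.20), ESPN by 0.74 (SE 0.30) and GJA1, the gap junction protein connexin 43, by 0.48 (SE 0.18). Of 4 immature genes 2 rose: NCAM1, an adhesion molecule of young Sertoli cells, by 0.64 (SE 0.12) and BAMBI, a decoy receptor, by 0.62 (SE 0.17), while KRT8 had -0.36 (SE 0.30) and VIM 0.31 (SE 0.16). The list medians were 0.48 and 0.47. Without both apart pigs 0 of 7 and 0 of 4 were called, with 2 and 0 at an unadjusted edgeR p under 0.05, beside 17.5% of all genes.

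With all pigs in the model, spermatid markers had negative slopes along SOX9. All 7 round and all 9 elongating spermatid markers measured had a negative slope, and 5 and 3 of them fell beside the same 35.5%, among these TSSK2, a kinase of late spermatids, by 0.64 (SE 0.19), ACR, the protease acrosin, by 0.44 (SE 0.11), and GAPDHS, a sperm glycolytic enzyme, by 0.57 (SE 0.21), while the spermatogonial genes RET, KIT and UCHL1 rose by 1.06, 0.68 and 0.66, 3 of 4. Spermatocyte markers split, with TDRD5 (-0.72) and SYCP2 (-0.27) falling and MEIOB (0.26) rising, of 8. Without both apart pigs 0 spermatid, spermatogonial or spermatocyte markers were called (0, 0 and 3 at an unadjusted edgeR p under 0.05, beside 17.5% of all genes). There 7 of 7 round and 6 of 9 elongating spermatid markers were negative. Without Low AS chicory replicate 1 alone, 6 of 7 round and 4 of 9 elongating spermatid markers were negative, with medians of -0.19 and 0.00. In that model 3 of 4 spermatogonial markers were negative, with a median of -0.07, so their rise rested on that pig. With the mean of the elongating spermatid markers as a further term, the share of all genes called along SOX9 was 18.9% and the slopes were 0.48 for CLU and 0.34 for WT1, both called by edgeR (adjusted p = 0.0193 and 0.0434), and 0.33 for GATA4 (adjusted p = 0.178). Of 7 peritubular and smooth muscle markers 3 rose with SOX9 (ACTA2 by 0.65, TAGLN by 0.68 and CNN1 by 0.50), as did 2 of 6 Leydig markers (HSD17B3 by 0.49 and CYB5A by 0.41) and 1 of 5 endothelial markers, EGFL7 (0.60). These shares stand beside the 35.5% of all genes, and without both apart pigs 1 of 7 peritubular, 0 of 6 Leydig and 0 of 5 endothelial markers were called. The part of those cells in the members' slopes was not tested.

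Among single genes with a symbol, those whose level over the 24 plain libraries was most like SOX9 were ADAM10, a membrane protease (r = 0.87), NFATC2, a calcium-regulated transcription factor (0.86), EPB41L2, a cytoskeletal protein (0.86), MOV10, an RNA helicase (0.86), and CSNK1E, casein kinase 1 epsilon (0.85). In the 8 numbered libraries the r values were 0.04, 0.55, 0.97, 0.93 and 0.84, and without Low AS chicory replicate 1 they were 0.69, 0.71, 0.58, 0.69 and 0.61. The most opposite with a symbol were POC1A, a centriole protein (-0.91), NCAPH, a condensin subunit (-0.91), DAW1, a cilium assembly factor (-0.89), TXNRD3, a thioredoxin reductase of testis (-0.89), and REXO5, an exonuclease (-0.87). In the numbered libraries their r was -0.76, -0.70, -0.02, -0.88 and -0.95. Their r in plain libraries without that pig was -0.76, -0.78, -0.73, -0.70 and -0.64. CLU, the member most like SOX9, ranked 225 of 13751 genes. WT1, FSHR and GATA4 ranked 1878, 2315 and 2696, and DHH and CTSL ranked 6143 and 6380.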

How the data were processed

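The deposited files hold 1 table per pig of whole-number read counts per Ensembl gene, not normalized by the authors, and the submitters' processing notes list HTSeq 0.6.0, SAMtools 1.3.1, STAR, Trimmomatic 0.33 and cutadapt 1.8.1, with no roles. Per the labels' protocols the kit was TruSeq stranded mRNA. Build, annotation and strand setting are not given in the sources used here; no coordinates are printed, and overlapping or antisense genes cannot be told apart. Rows for reads in no gene (5 a table) stayed out of library sizes, where 20.6% to 39.6% of reads fell outside annotated genes. Symbols came from a table pairing identifiers with symbols.

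Genes passing filterByExpr were tested with edgeR 4.0.16 (R 4.3.3, TMM scaling, quasi-likelihood F test, Benjamini-Hochberg over all genes tested, threshold 0.05), with library set as a term. All 7 members passed the filter in every model, apart from SOX9, which was left out of its own. The SE is the log2 estimate over the square root of F, and intervals are 95% from the t distribution of the fitted degrees of freedom. Log2 CPM used a prior count of 2. Androstenone entered as log2 of the concentration plus 0.5 mg/kg. Models used the 31 pigs with an AS group (29 for carcass weight), or 32 for SOX9. The comparison of library sets was added after seeing the data. Correlation p-values came from 100000 permutations in plain libraries and from all 40320 orders in numbered libraries, two-sided, and the edgeR tests are two-sided as well. The script was tested on simulated data.

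The members and all gene lists were chosen with earlier results of these data known. Genes named beside the members are list genes called in a model, the list gene with the smallest p, and the 5 genes with a symbol that had the highest and the 5 that had the lowest r with SOX9; AMHR2, DMRT1, VIM and CTSV were named after their values were seen. The pigs are separate animals, several from 1 sow (14 sows), replicate numbers follow accession order, and no 2 libraries of a group agreed within sampling noise. Alternatives were DESeq2 1.42.0, its size factors, no filter, each pig left out, each library set alone, no library set term, sow as a block, covariates, and models without the 2 pigs that stood apart. A model along AMH and its correlations were planned and could not be run, since AMH had no identifier, and promoter motifs were not searched.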

Additional observations from a re-analysis of the deposited data

Results flagged for a closer look

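Of 28 groups examined (7 genes in 4 AS by diet groups), 4 held a pig whose gap to the nearest other pig exceeded Dixon's limit for the group's range. That limit is passed by about 1 in 20 groups of independent normal values. CPM values need not be normal and the 7 genes share the same pigs, so the number to expect here is not known. SOX9 was 136 CPM in Low AS chicory replicate 1, where the next pig of the group had 37.4 CPM and the group median was 33.5 CPM. CLU was 5570 CPM in the same pig, with 3220 CPM in the next and a median of 2700 CPM. This is the pig with the lowest summed elongating spermatid markers, 2810 CPM. SOX9 was 78.3 CPM in Low AS control replicate 3, a numbered library, with 43.8 CPM in the next pig and a median of 32.4 CPM. CTSL was 7.56 CPM in High AS chicory replicate 4, with 2.9 CPM in the next and a median of 1.37 CPM.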

How the results depend on the processing

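Of 534 values recomputed under settings other than leaving out 1 pig, 418 kept their direction and their side of the threshold, and of 1696 values with 1 pig left out, 1579 did. No member came to pass in a comparison by AS group, androstenone, carcass weight, diet or their interaction under any setting run. Most turned signs belong to estimates near 0, and for those the cause was not tested. Along SOX9, the call was lost in 3 of 9 other settings for CLU, 3 of 9 for WT1 and 7 of 9 for GATA4, and with 1 pig left out in 0, 1 and 13 of 32. Low counts limit DHH and CTSL, and 8 numbered libraries limit what can be said within that set.

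With no library set term 0 genes were called along androstenone and 0 between diets, and the AS difference turned to -0.23 for FSHR, 0.04 for WT1 and 0.0019 for GATA4, the androstenone slope of WT1 to 0.0038, the weight slope of CLU to 0.08, the interaction of WT1 to 0.03 and the SOX9 slope of DHH to -0.42. In plain libraries 0 genes were called between diets, and the AS difference was -0.05 for FSHR, 0.08 for WT1 and 0.09 for GATA4, the androstenone slope of GATA4 0.03, the weight slope 0.25 for SOX9, 0.07 for CLU and -0.33 for CTSL, and the SOX9 slope of CTSL 0.03. In numbered libraries (an alternative chosen after seeing the data) 0 genes were called along androstenone, 0 between diets and 817 along SOX9. There the AS difference was -0.03 for FSHR, 0.17 for DHH and 0.57 for CLU, the androstenone slope of CLU 0.11 and the weight slope 0.15 for FSHR and -0.06 for WT1. The diet difference was -0.03 for SOX9, 0.17 for FSHR, 0.19 for WT1, -0.37 for CLU and -0.65 for CTSL, and the SOX9 slope -0.42 for FSHR and -0.09 for DHH. The interaction could not be fitted in numbered libraries, which hold no Low AS chicory pig.

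With sow as a block 0 genes were called along androstenone, 2455 between sets and 2419 along SOX9, and the AS difference of FSHR was -0.31, the androstenone slope of GATA4 0.01, the weight slope of WT1 -0.16, the diet difference of FSHR 0.57, the set difference of GATA4 0.11 and the SOX9 slope of DHH -0.03. Without both pigs that stood apart 372 genes were called along SOX9, the AS difference was 0.03 for WT1 and 0.01 for CLU, the diet difference of SOX9 -0.01 and the interaction 0.19 for SOX9 and 0.14 for GATA4. With carcass weight as a covariate 0 genes were called along androstenone, the AS difference was 0.10 for GATA4 and 0.04 for DHH, and the androstenone slope 0.04 for GATA4 and -0.02 for CTSL. With no filter on low counts 9 genes were called along androstenone and 1 for the interaction, and the set difference of GATA4 was 0.04. DESeq2 called 7 genes along androstenone and gave 0.01 for the set difference of GATA4, as did its size factors in edgeR. The CTSL slope was -0.03 along the untransformed concentration, and 0 genes were called without the pigs at 0 mg/kg. The weight slope was 0.05 for SOX9 with AS group as a term and -0.01 for WT1 without the lightest pig. With no AS term 0 genes were called between diets and the diet difference of CTSL was -0.05. With the spermatid term, chosen after seeing the data, 2595 genes were called along SOX9 and the DHH slope was -0.16.

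In numbered libraries r was negative for SOX9 with FSHR (-0.44), DHH (-0.15) and CTSL (-0.31), for WT1 with FSHR (-0.66), DHH (-0.63), CLU (-0.62) and CTSL (-0.79) and for GATA4 with CTSL (-0.53). Without the 2 plain libraries farthest from the median it was -0.06 for WT1 with CTSL.

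With each pig left out in turn, 1 to 4 genes were called along androstenone, 0 to 1 between diets and 890 (without Low AS chicory replicate 1) to 5214 along SOX9. The AS difference ran from -0.31 to 0.0018 for SOX9, -0.12 to 0.16 for FSHR, -0.08 to 0.07 for WT1, -0.07 to 0.06 for GATA4, -0.27 to 0.01 for DHH and -0.19 to 0.04 for CLU. The androstenone slope ran from -0.10 to 0.01 for SOX9, -0.07 to 0.004 for WT1 and -0.04 to 0.02 for GATA4, and the weight slope from -0.12 to 0.05 for SOX9, -0.01 to 0.14 for WT1, -0.16 to 0.03 for CLU and -0.18 to 0.21 for CTSL. The diet difference ran from -0.05 to 0.26 for SOX9, -0.10 to 0.10 for FSHR and -0.18 to 0.25 for CTSL, the interaction from -0.63 to 0.04 for SOX9 and -0.19 to 0.10 for GATA4, the set difference of GATA4 from -0.10 to 0.07, and the SOX9 slope from -0.02 to 0.21 for DHH and -0.42 to 0.07 for CTSL. Replicate numbers pair no pigs; the sow block, above, is the comparison within sows. The planned model along AMH and its correlations were not run, since AMH had no identifier.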
